A study of Homo sapiens with 32 samples.

Results

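The 10 genes described here control the level of polyamines in LNCaP prostate cancer cells: *ODC1*, *AMD1*, *SRM*, *SMS*, *SAT1*, *SMOX*, *PAOX*, *OAZ1*, *OAZ2*, and *AZIN1*. They were taken by symbol from the 25498 genes of the deposited tables, and all 10 were among the 16995 genes with enough counts to be tested. The question asked of them was how their RNA differed between cells with full serum, cells deprived of androgen, and androgen-deprived cells exposed to a ligand of the HER receptor family.

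Polyamines (putrescine, spermidine, and spermine) are small, positively charged molecules that bind nucleic acids and are needed for growth. ODC1 makes putrescine from ornithine, AMD1 supplies the aminopropyl groups from S-adenosylmethionine, and the synthases SRM and SMS use these groups to build spermidine and then spermine. SAT1 acetylates polyamines for export or breakdown, PAOX oxidizes the acetylated forms, and SMOX oxidizes spermine directly. The antizymes OAZ1 and OAZ2 bind ODC1 and send it to the proteasome, and the antizyme inhibitor AZIN1 takes antizyme away from ODC1. The prostate makes and secretes polyamines in large amounts, and *ODC1* is a long known androgen-responsive gene.

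The study sequenced polyA RNA of LNCaP cells, an androgen-sensitive prostate cancer line that came from a lymph node metastasis. There were 8 groups of 4 libraries each, 32 in all. Cells of the FBS group grew in medium with fetal bovine serum. Cells of the CSS group had their medium changed for 1 day to charcoal-stripped serum, which is depleted of steroid hormones. The other 6 groups were cells in CSS that received EGF (a ligand of EGFR) or NRG-1 (a ligand of HER3 and HER4) at 100 ng/mL for 5 minutes, 1 hour, or 4 hours. Full serum also holds growth factors and other small molecules, so in the FBS and CSS comparison androgen and these other components cannot be told apart. Each group held 2 libraries of batch 1 and 2 of batch 2. The labels call the libraries of a batch biological replicates without saying whether they were separate cultures, so the P values measure only the spread between these libraries, which may be technical.

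Library totals lay between 63822654 and 92401724 counts, and each of the 10 genes held at least 183 counts in every library. LNCaP markers were present in every library (*HOXB13* from 163 TPM, *FOLH1* from 695 TPM). Of the 12 markers of other cell types, *KRT5*, *TP63*, *COL1A2*, *DCN*, *PTPRC*, *CD3E*, *PECAM1*, and *CDH5* stayed at 0.04 TPM or below, and *LUM* stayed at 0.31 TPM or below. *KRT14* was higher in FBS than in CSS (a log2 fold change of 3.84 ± 0.30), *COL1A1* lower (-0.64 ± 0.14), and *CD68* higher after 4 hours of EGF (2.03 ± 0.13) and NRG-1 (1.38 ± 0.13), with at most 2.17, 5, and 16.2 TPM, while the other basal, stromal, and leukocyte markers stayed near 0 in those groups. The androgen-responsive gene *KLK3* was higher in FBS than in CSS by 3.33 ± 0.12 (log2 ± SE), and *EGR1*, an immediate early gene, was higher after 1 hour of EGF by 10.03 ± 0.46 and of NRG-1 by 10.07 ± 0.46. Of 3 growth factor response genes listed as a check of the labels, 2 were higher and 1 lower after 1 hour of EGF (6.00% and 3.51% of all genes). After 1 hour of NRG-1 2 of these 3 were higher and none was lower (4.45% and 2.28%). The library batch 2 replicate 2 was the highest of its group for *AMD1*, *SMS*, and *OAZ1* in 8 of 8 groups by CPM. By TPM it was the highest in 8 groups for *AMD1*, 2 for *SMS*, and 1 for *OAZ1*. CPM (counts scaled to a common library total) are shares of the RNA of a bulk sample. So fewer cells that hold a given RNA and less of that RNA per cell cannot be told apart.

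Levels of different genes are compared only in TPM, which is scaled for transcript length. Whether the libraries of groups overlapped was judged by CPM unless TPM is named. *OAZ1* was the most abundant of the 10, with a median of 1255 TPM over the 32 libraries (range 1119 to 1380.4). *AMD1* followed with 618 TPM and *ODC1* with 430.1 TPM. The synthases held 204 TPM (*SRM*) and 137 TPM (*SMS*), and *SAT1* held 161 TPM. The medians of *OAZ2* and *AZIN1*, 127 and 118 TPM, lay close together and their ranges (82.7 to 144 and 96.0 to 148) overlapped. Both polyamine oxidases were scarce, with 5.04 TPM for *SMOX* and 4.22 TPM for *PAOX*. By mean TPM over the libraries, 8 of the 10 genes stood above the 92nd percentile of the genes tested, while *SMOX* and *PAOX* stood at percentiles 40.4 and 38.7. No TPM range of *SMOX* or *PAOX* came near those of the other 8 genes.

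The RefSeq table (GRCh38.p14) held 10 promoter windows for 7 of the 10 genes, each from 250 bases before to 50 bases after a transcription start, and none for *SMOX*, *PAOX*, or *AZIN1*. The 250 bases before 1 start are shown for each of the 4 genes of the synthetic route. These genes were higher with serum and after 4 hours of either ligand. Capitals mark the E-box CACGTG (bound by MYC and related proteins), the EGR1 motif GCGGGGGCG, and the GC box GGGCGG, as written or as the reverse complement. A GC box that shares letters with an EGR1 motif runs into the same block of capitals.
ODC1 (chr2:10448013-10448262, minus strand): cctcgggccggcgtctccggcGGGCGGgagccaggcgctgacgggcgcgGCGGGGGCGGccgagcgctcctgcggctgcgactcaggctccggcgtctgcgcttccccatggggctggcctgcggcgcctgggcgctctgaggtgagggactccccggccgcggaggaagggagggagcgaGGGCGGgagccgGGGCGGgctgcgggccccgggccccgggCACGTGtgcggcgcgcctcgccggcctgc
AMD1 (chr6:110874535-110874784, plus strand): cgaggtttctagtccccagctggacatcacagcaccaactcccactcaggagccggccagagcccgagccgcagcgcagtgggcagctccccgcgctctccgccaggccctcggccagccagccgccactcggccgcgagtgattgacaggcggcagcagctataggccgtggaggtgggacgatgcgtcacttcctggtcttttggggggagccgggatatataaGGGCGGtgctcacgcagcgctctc
SRM (chr1:11060019-11060268, minus strand): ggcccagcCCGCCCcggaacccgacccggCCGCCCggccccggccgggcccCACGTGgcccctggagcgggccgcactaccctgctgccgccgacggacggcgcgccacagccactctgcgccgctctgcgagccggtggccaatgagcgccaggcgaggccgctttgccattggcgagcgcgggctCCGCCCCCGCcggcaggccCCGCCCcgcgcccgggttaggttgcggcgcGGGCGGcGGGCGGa
SMS (chrX:21940459-21940708, plus strand): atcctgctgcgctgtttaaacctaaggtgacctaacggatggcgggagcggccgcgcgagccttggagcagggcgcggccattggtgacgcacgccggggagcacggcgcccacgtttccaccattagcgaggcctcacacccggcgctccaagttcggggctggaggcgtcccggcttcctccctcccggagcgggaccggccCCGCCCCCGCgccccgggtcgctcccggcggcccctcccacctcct
The E-box stood 29 bases before and again 6 bases after this *ODC1* start and 199 bases before the *SRM* start, and 7.26% of the 35116 windows searched held 1. The EGR1 motif stood 201, 62, and 45 bases before the starts of *ODC1*, *SRM*, and *SMS*, against 5.07% of all windows. Another *ODC1* window, at a start farther upstream, held GC boxes but no E-box and no EGR1 motif. The *AMD1* stretch held neither, only a GC box 24 bases before the start, although a window at a start farther upstream held the EGR1 motif at 44 bases. The GC box occurred in 45% of all windows. It was found 3 times each in the windows of *OAZ1* and *OAZ2*, and *OAZ2* was lower with serum and after 4 hours of either ligand. *SAT1* was also higher with serum and after 4 hours of either ligand. Its 1 window held no E-box, EGR1 motif, or GC box. The cAMP response element TGACGTCA (1.85% of all windows) was found in no window of the 7 genes, and the AP-1 motif TGACTCA (4.95%) was found once in all, 241 bases before the *OAZ2* start. These are matches of letters only.

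With full serum against CSS, 6 of the 10 genes were higher and 3 were lower, and *AZIN1* did not pass the test. The enzymes of synthesis were all higher in FBS, by log2 fold changes of 0.39 to 0.45. On log2 TPM, where the median of all genes shifted by -0.17, these were 0.19 (*SMS*) to 0.25 (*SRM*). Relative to that median they were 0.35 to 0.42. *SAT1*, the acetyltransferase, had the largest difference, and both oxidases and *OAZ2* were lower in FBS. Genes were called at an adjusted P value below 0.05 (edgeR, group and batch in the model), a rule by which 26.0% of all genes tested were higher and 26.8% were lower in this comparison. The median log2 fold change of the 10 was 0.29 against -0.01 over all genes. None of the 10 was a DEG, that is, passed with a log2 fold change beyond 1, as 8.71% of all genes did.

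*ODC1* held 552, 531, 600.4 and 655 CPM in FBS (batch 1 replicates 1 and 2, then batch 2 replicates 1 and 2, an order kept throughout) and 401, 409, 478 and 471 CPM in CSS. The groups did not overlap, and the log2 fold change was 0.41 ± 0.05 (SE, adjusted P = 5.84e-08, n = 4 against 4), with 0.42 in batch 1 alone and 0.41 in batch 2 alone. By TPM the groups did overlap, with 412 in the lowest FBS library and 419 in the highest CSS library. *AMD1* held 1029.6, 1142, 1247 and 1499 CPM in FBS and 886, 783, 913 and 1093 CPM in CSS. The highest CSS library exceeded the lowest FBS library, so these groups overlapped, and the difference was 0.42 ± 0.12 (adjusted P = 0.00491). By TPM they did not overlap, with 531.42 in the lowest FBS library and 530.12 in the highest CSS library. *SRM* rose from 117 ± 9.32 CPM in CSS to 159 ± 7.80 CPM in FBS (mean ± SD), a difference of 0.45 ± 0.05 (adjusted P = 5.06e-08). *SMS* rose from 128 ± 14.2 to 167 ± 16.0 CPM, a difference of 0.39 ± 0.06 (adjusted P = 2.54e-06). Neither synthase overlapped between the groups by CPM, but *SRM* did by TPM (192 in the lowest FBS library, 201 in the highest CSS library).

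*SAT1* held 108, 119, 129 and 169 CPM in FBS and 70.3, 70.4, 69.9 and 79.4 CPM in CSS. All 4 FBS libraries lay above all CSS libraries, and the log2 fold change was 0.85 ± 0.11 (adjusted P = 9.49e-08), that is, 1.81-fold. The size differed by batch, 0.69 in batch 1 and 1.00 in batch 2. *SMOX* went the other way, with 3.93, 3.19, 4.38 and 4.76 CPM in FBS and 5.06, 5.26, 6.27 and 6.21 CPM in CSS. Its groups did not overlap either, with a log2 fold change of -0.49 ± 0.10 (adjusted P = 9.93e-05). *PAOX* held 3.46, 2.83, 3.12 and 3.08 CPM in FBS and 3.67, 4.44, 5.39 and 5.10 CPM in CSS, a difference of -0.55 ± 0.12 (adjusted P = 0.000343), -0.36 in batch 1 and -0.75 in batch 2. Only the highest FBS library came near the lowest of CSS, without reaching it.

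The regulators of ODC1 moved unequally. *OAZ2* held 106, 102, 105 and 113 CPM in FBS and 126, 129, 137 and 139 CPM in CSS, a log2 fold change of -0.31 ± 0.04 (adjusted P = 1.99e-07), with no overlap. *OAZ1* had 774 ± 86.8 CPM in FBS and 681 ± 59.1 in CSS, a difference of 0.19 ± 0.08 (adjusted P = 0.0388). *AZIN1* had 303 ± 11.5 CPM in FBS and 267 ± 20.0 in CSS, a difference of 0.19 ± 0.10 that did not pass (adjusted P = 0.135), although its groups did not overlap by CPM. By TPM they did (95.97 to 120.15 in FBS, 103.29 to 120.7 in CSS). With the replicate block in the model (each replicate number of a batch as a term) *AZIN1* passed (adjusted P = 0.00955), as it did in batch 1 alone (adjusted P = 0.0368). In batch 2 alone *AZIN1* did not pass (0.22, adjusted P = 0.485). On log2 TPM its sign turned (-0.009, adjusted P = 0.893), and relative to the median of all genes it differed by 0.16. The *OAZ1* call was lost without any 1 of 7 of the 8 libraries (all but FBS batch 2 replicate 1, adjusted P = 0.0578 to 0.162). In TPM its sign turned (-0.01, adjusted P = 0.782), on a scale where the median of all genes shifted by -0.17, relative to which *OAZ1* differed by 0.15. In batch 2 alone, with 2 libraries a group, *AMD1* (0.46, adjusted P = 0.193) and *OAZ1* did not pass.

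**Figure D1:**
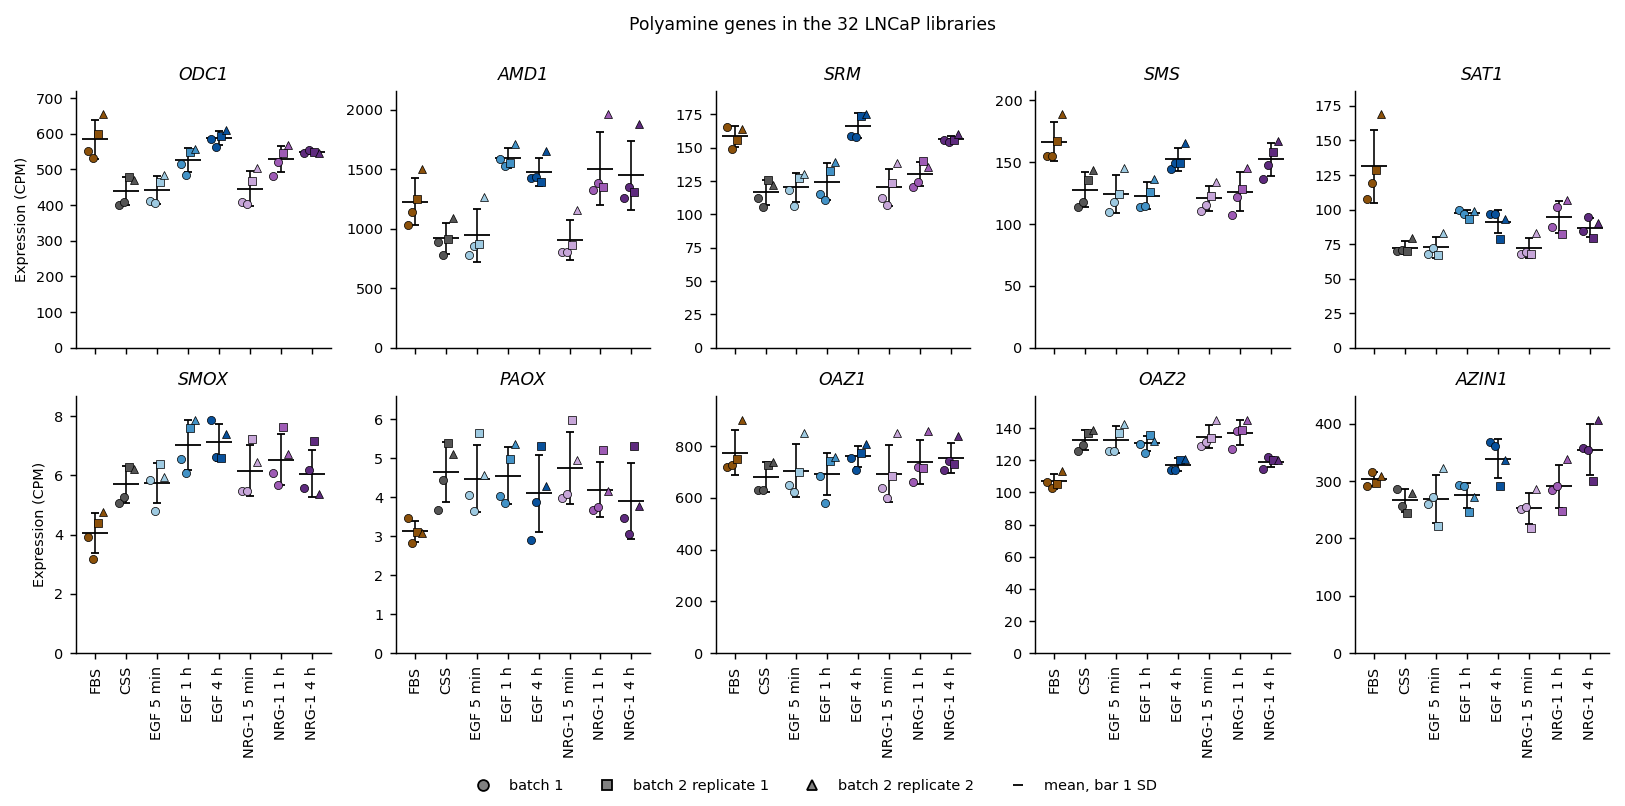
CPM of the 10 genes in the 32 libraries by group, each axis from 0. Circles are batch 1, squares batch 2 replicate 1, triangles batch 2 replicate 2, and the bars show the mean and 1 SD of 4 libraries. *SAT1* stood highest in FBS and *SMOX* lowest there, *AMD1* was raised at 1 hour and 4 hours of both ligands, and the triangle is the highest point of *AMD1*, *SMS*, and *OAZ1* in every group on this scale.

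After 5 minutes of ligand no gene of the 10 differed from CSS. With EGF the log2 fold changes lay between -0.06 (*PAOX*) and 0.05 (*OAZ1*), and with NRG-1 between -0.08 (*SMS*) and 0.11 (*SMOX*). By edgeR 0 of 10 passed for either ligand, also 0 of 10 at an unadjusted P value below 0.05 and 0 of 10 by the DESeq2 Wald test. Over all genes 0.00588% were called with EGF and 0% with NRG-1. At an unadjusted P value below 0.05, 251 (EGF) and 324 (NRG-1) of the 16995 genes tested passed. For *ODC1* the interval of 2 SE each way was -0.09 to 0.10 (EGF) and -0.08 to 0.12 (NRG-1), and for *AMD1* it was -0.21 to 0.28 and -0.26 to 0.22.

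By 1 hour *AMD1*, *SAT1*, and *ODC1* were higher with both ligands, and *SMOX* passed with EGF. The genes of the later steps, *SRM* and *SMS*, and the antizymes did not pass. In all, 4 of 10 genes were higher with EGF and 3 of 10 with NRG-1, against 6.00% and 4.45% of all genes. None was lower (3.51% and 2.28% of all genes) and none was a DEG (1.72% and 0.989%).

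*AMD1* held 1588, 1532, 1551 and 1715 CPM after 1 hour of EGF, and every library lay above the 4 CSS libraries given above. The log2 fold change was 0.81 ± 0.12 (1.75-fold, adjusted P = 1.37e-05), with 0.91 in batch 1 and 0.71 in batch 2. With NRG-1 it held 1324, 1383, 1349 and 1965 CPM, of which batch 2 replicate 2 stood apart, and the log2 fold change was 0.71 ± 0.12 (adjusted P = 0.000141). Against CSS, no other gene of the 10 differed by as much at this time.

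*SAT1* held 99.5, 97.1, 93.2 and 98.7 CPM with EGF and 87.3, 102, 82.6 and 107 CPM with NRG-1. Neither group overlapped CSS, and the differences were 0.42 ± 0.10 (adjusted P = 0.00625) and 0.39 ± 0.10 (adjusted P = 0.019). *ODC1* reached 527 ± 33.4 CPM with EGF and 529 ± 36.3 CPM with NRG-1 (mean ± SD), from 439.8 ± 40.1 CPM in CSS. Its log2 fold changes, 0.26 ± 0.05 and 0.27 ± 0.05, were of like size. *SMOX* held 6.55, 6.09, 7.59 and 7.85 CPM with EGF and overlapped CSS, with a difference of 0.30 ± 0.09 (adjusted P = 0.0373). By TPM it did not overlap (5.56 in the lowest EGF library, 5.43 in the highest CSS library). *SRM* differed by 0.16 ± 0.05 with NRG-1, which did not pass (adjusted P = 0.0683). It passed with the replicate block (adjusted P = 0.0232) and by DESeq2 (adjusted P = 0.0241).

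In batch 2 alone 0 of 10 passed at 1 hour for either ligand, although the differences of the called genes lay between 0.23 (*ODC1*, NRG-1) and 0.72 (*AMD1*, NRG-1). The share of all genes that passed in that smaller fit is not given, so the 0 is not a result about these genes. The *SMOX* call with EGF was lost without any 1 of 7 of the 8 libraries, all but EGF 1 hour batch 1 replicate 2 (adjusted P = 0.06 to 0.113). That of *SAT1* with NRG-1 was lost without CSS batch 1 replicate 1 or 2, CSS batch 2 replicate 1, NRG-1 batch 1 replicate 2, or NRG-1 batch 2 replicate 2 (adjusted P = 0.0531 to 0.0771). *ODC1* with NRG-1 did not pass on log2 TPM (adjusted P = 0.083) or without the batch term (adjusted P = 0.0558).

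By 4 hours the change covered the whole synthetic route. *ODC1*, *AMD1*, *SRM*, and *SMS* were higher with both ligands, together with *AZIN1* and *SAT1*, and *OAZ2* was lower. *SMOX* was higher with EGF alone by the test, and *PAOX* and *OAZ1* did not pass with either ligand. In all, 7 genes were higher and 1 lower with EGF, against 24.6% and 24.6% of all genes, and 6 were higher and 1 lower with NRG-1, against 21.6% and 21.0%. The median log2 fold change was 0.33 with EGF and 0.26 with NRG-1, and -0.02 and -0.01 over all genes. None of the 10 was a DEG (9.56% and 7.41% of all genes).

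*AMD1* stayed the most changed of the 10, with 1429, 1434, 1396 and 1655 CPM after 4 hours of EGF and 1256, 1348, 1314 and 1884 CPM after NRG-1. All 8 libraries lay above the CSS libraries, and the log2 fold changes were 0.69 ± 0.12 (adjusted P = 2.13e-05) and 0.66 ± 0.12 (adjusted P = 5.76e-05). *ODC1* held 586, 564, 594 and 611 CPM with EGF and 545, 554, 549.9 and 546 CPM with NRG-1. By CPM the 4 NRG-1 libraries were nearly alike, and both groups lay above CSS, by 0.43 ± 0.05 (adjusted P = 2.90e-08) and 0.33 ± 0.05 (adjusted P = 3.52e-06). By TPM the NRG-1 libraries ran from 388 to 476 and overlapped CSS (348 to 419).

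*SRM* held 158, 158, 174 and 175 CPM with EGF, 156, 154, 155 and 159.9 CPM with NRG-1, and 113, 105, 126 and 122 CPM in CSS. There was no overlap, and the differences were 0.52 ± 0.05 (adjusted P = 3.60e-09) and 0.43 ± 0.05 (adjusted P = 1.43e-07). *SMS* reached 152 ± 9.10 and 152 ± 13.5 CPM (mean ± SD), differences of 0.26 ± 0.06 and 0.26 ± 0.06. By CPM its values with NRG-1 overlapped those of CSS and those with EGF did not. By TPM those with EGF overlapped too (141.25 in the lowest EGF library, 141.79 in the highest CSS library).

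Of the regulators, *AZIN1* held 368, 361, 292 and 337 CPM with EGF, 358, 354, 299 and 407 CPM with NRG-1, and 287, 257, 244 and 279 CPM in CSS. The libraries with ligand lay above those of CSS, by 0.35 ± 0.10 (adjusted P = 0.00674) and 0.41 ± 0.10 (adjusted P = 0.00191). *OAZ2* held 114, 114, 120.4 and 121 CPM with EGF and 115, 122, 119.8 and 120.1 CPM with NRG-1. These lay below all CSS libraries, by log2 fold changes of -0.18 ± 0.04 (adjusted P = 0.000463) and -0.15 ± 0.04 (adjusted P = 0.00244). *OAZ1* differed by 0.16 ± 0.08 (adjusted P = 0.0743) and 0.15 ± 0.08 (adjusted P = 0.106). It passed for both with the replicate block (adjusted P = 0.0128 and 0.0233) and in batch 1 alone (adjusted P = 0.021 and 0.0332). For EGF it also passed with only the groups compared (adjusted P = 0.00647), with at least 10 counts in every library (0.0408), and without the batch 2 replicate 2 libraries (0.0151). With EGF it did not pass in batch 2 alone (adjusted P = 0.59) or on log2 TPM (adjusted P = 0.0907). For NRG-1 it also passed without NRG-1 batch 2 replicate 1 (adjusted P = 0.0396).

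Of the catabolic genes, *SAT1* held 96.5, 96.9, 78.6 and 93.1 CPM with EGF and 84.2, 94.6, 79.1 and 90.1 CPM with NRG-1, with differences of 0.34 ± 0.10 (adjusted P = 0.00891) and 0.26 ± 0.10 (adjusted P = 0.0424). The lowest library of each ligand was batch 2 replicate 1, just below the highest CSS library, so both ligand groups overlapped CSS. By TPM the NRG-1 libraries (from 143.2) overlapped CSS (up to 144.61), and the EGF libraries (from 151.49) did not. *SMOX* held 7.88, 6.63, 6.60 and 7.38 CPM with EGF, all above CSS, a difference of 0.33 ± 0.09 (adjusted P = 0.00408). By TPM its lowest EGF library (5.41) lay just below its highest CSS library (5.43). With NRG-1 it held 5.56, 6.17, 7.15 and 5.36 CPM, and the difference of 0.09 ± 0.09 did not pass (adjusted P = 0.454). *PAOX* differed by -0.19 ± 0.12 with EGF and -0.26 ± 0.12 with NRG-1. The NRG-1 difference did not pass (adjusted P = 0.0847), but did with the replicate block (adjusted P = 0.0376) and without NRG-1 batch 2 replicate 1 (adjusted P = 0.0164).

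In batch 2 alone *ODC1* and *SRM* passed with EGF and *SRM* with NRG-1 (3 calls in all), the other genes keeping their direction. *SMOX* with EGF did not pass on log2 TPM (adjusted P = 0.108), *OAZ2* with NRG-1 did not pass in batch 1 alone (adjusted P = 0.117), and *SAT1* with NRG-1 passed only without CSS batch 2 replicate 2 or NRG-1 batch 2 replicate 1 among the libraries left out in turn (otherwise adjusted P = 0.0634 to 0.15).

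**Figure D2:**
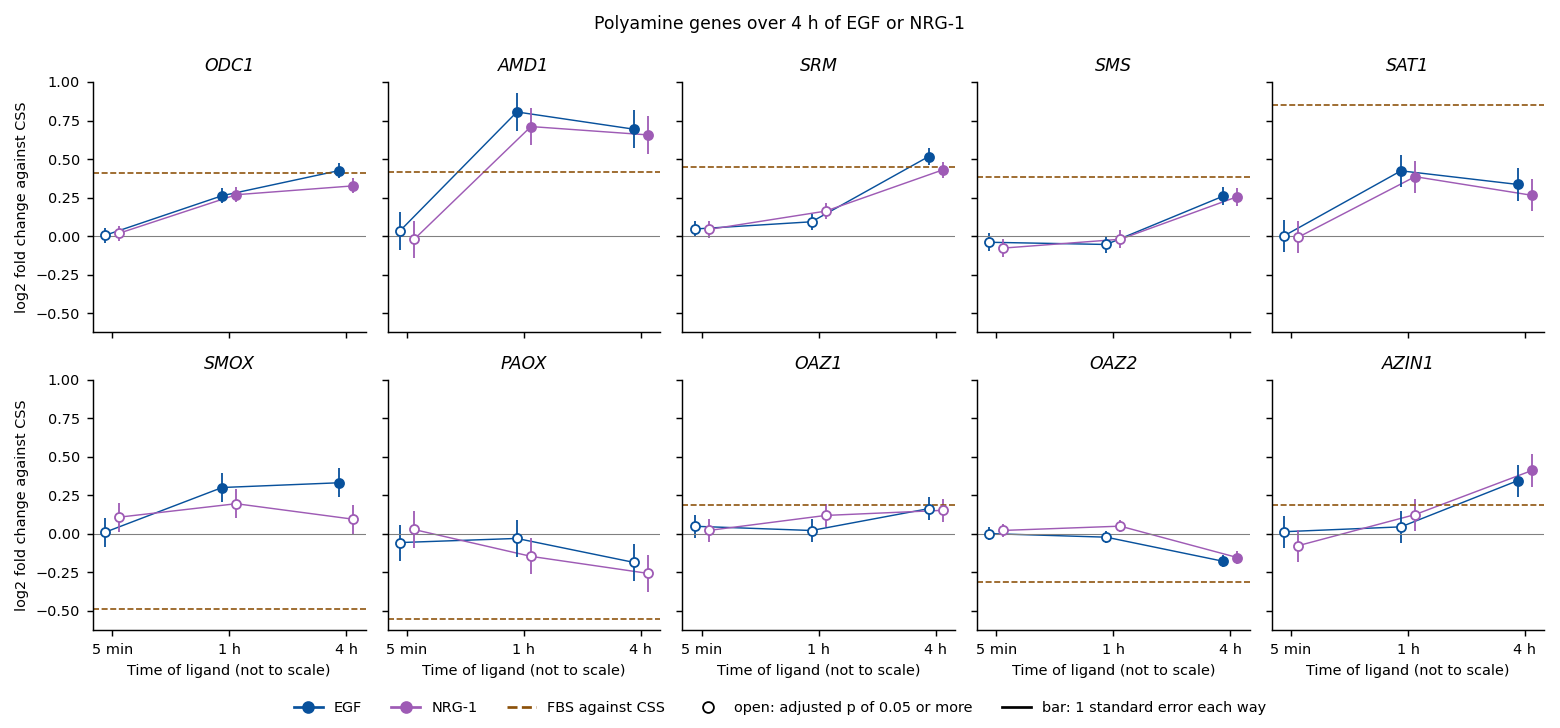
log2 fold change against CSS (points, with 1 SE each way) after 5 minutes, 1 hour, and 4 hours of EGF or NRG-1 for the 10 genes, with filled points for an adjusted P value below 0.05 and a dashed line for FBS against CSS. *AMD1* and *SAT1* were already raised at 1 hour, *SRM*, *SMS*, and *AZIN1* at 4 hours, and the dashed line of *SMOX* lies on the other side of 0 from its EGF points.

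The course of the rise was tested directly between 1 hour and 4 hours. With EGF *ODC1*, *SRM*, *SMS*, and *AZIN1* rose between these times and *OAZ2* fell (4 higher and 1 lower of 10, against 22.5% and 21.5% of all genes). With NRG-1 *SRM*, *SMS*, and *AZIN1* rose and *OAZ2* fell (3 higher and 1 lower, against 19.0% and 18.5%). *SRM* rose by 0.42 ± 0.05 with EGF (adjusted P = 1.58e-07) and by 0.27 ± 0.05 with NRG-1 (adjusted P = 0.000184). *SMS*, the synthase of the last step, rose by 0.31 ± 0.06 and 0.28 ± 0.06, and *AZIN1* by 0.30 ± 0.10 and 0.29 ± 0.10. *OAZ2* changed by -0.16 ± 0.04 and -0.20 ± 0.04, from 131 ± 4.73 to 117 ± 4.05 CPM with EGF and from 137 ± 7.60 to 119 ± 3.07 CPM with NRG-1.

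*AMD1* and *SAT1*, which were raised at 1 hour, showed no further rise that passed. *AMD1* differed between the times by -0.11 ± 0.12 with EGF and -0.05 ± 0.12 with NRG-1, and *SAT1* by -0.09 ± 0.10 and -0.12 ± 0.10, none of which passed. For EGF the *AMD1* difference passed without the batch 2 replicate 2 libraries (an alternative chosen after seeing the data, -0.15, adjusted P = 0.0306) and on log2 TPM (-0.22, adjusted P = 0.00279), and that of *SAT1* passed on log2 TPM for both ligands (-0.20 and -0.14). On this scale the median of all genes shifted by -0.08 with EGF and -0.03 with NRG-1. Relative to it *AMD1* differed by -0.14 with EGF, and *SAT1* by -0.12 with EGF and -0.11 with NRG-1. *OAZ1* with EGF (0.14 ± 0.08, adjusted P = 0.133) passed with the replicate block (adjusted P = 0.0316).

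The 4-hour rise of *ODC1* with EGF (0.16 ± 0.05, adjusted P = 0.00803) was 0.05 on log2 TPM (adjusted P = 0.555), a scale where the median of all genes shifted by -0.08. Relative to that median it was 0.13. The *AZIN1* call was lost with EGF without EGF 4 hours batch 1 replicate 1 or 2, EGF 4 hours batch 2 replicate 2, or EGF 1 hour batch 2 replicate 1 (adjusted P = 0.0534 to 0.0721), and with NRG-1 without NRG-1 1 hour batch 1 replicate 1 or 2, NRG-1 1 hour batch 2 replicate 1, NRG-1 4 hours batch 1 replicate 1, or NRG-1 4 hours batch 2 replicate 2 (adjusted P = 0.05 to 0.177). Within batch 2 only *SRM* with EGF passed (0.38, adjusted P = 0.00588), and within batch 1 all 9 of these calls were kept.

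EGF and NRG-1 were compared with each other at matched dose and time, and 0 of the 10 genes differed at 5 minutes, 1 hour, or 4 hours by edgeR, nor by DESeq2. Of all genes 0% differed at 5 minutes, 1.06% at 1 hour, and 1.66% at 4 hours. At an unadjusted P value below 0.05, 0, 0, and 1 of the 10 differed, against 184, 1397, and 1906 of the 16995 genes tested. That gene was *SMOX* at 4 hours (7.12 ± 0.623 CPM with EGF and 6.06 ± 0.801 with NRG-1), with a difference of 0.24 ± 0.09, an interval of 0.05 to 0.42 at 2 SE each way, and an adjusted P value of 0.271. So the *SMOX* rise that passed with EGF and not with NRG-1 was not shown to differ between them. For *ODC1* at 4 hours the difference was 0.10 ± 0.05 (interval 0.00 to 0.20). Its libraries did not overlap by CPM but did by TPM (463 to 514 with EGF, 388 to 476 with NRG-1). For *AMD1* it was 0.09 ± 0.12 at 1 hour (interval -0.15 to 0.34) and 0.04 ± 0.12 at 4 hours (interval -0.20 to 0.28). These intervals leave room for differences between the ligands of a size like that of the smaller changes against CSS.

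Whether serum and ligand led to the same levels was tested by comparing 4 hours of each ligand with FBS. *SAT1* was lower with ligand than with serum, and *SMOX*, *PAOX*, and *OAZ2* were higher, for both ligands. *AMD1* was higher with EGF. The other genes of synthesis did not pass. In all, 4 genes were higher and 1 lower with EGF, against 31.5% and 31.0% of all genes, and 3 were higher and 1 lower with NRG-1, against 29.4% and 27.8%. With the replicate block 7 of 10 genes passed for NRG-1 in place of 4, and 7 in place of 5 for EGF. The shares of all genes just given are of the model of group and batch and do not apply to these counts.

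*SAT1* differed by -0.52 ± 0.10 (adjusted P = 0.000102) with EGF and -0.59 ± 0.10 (adjusted P = 2.26e-05) with NRG-1, and in both cases the libraries of ligand and serum did not overlap. The batches differed in size, -0.23 and -0.77 for EGF and -0.35 and -0.80 for NRG-1. *SMOX* differed the other way, by 0.82 ± 0.10 (adjusted P = 1.90e-08) and 0.58 ± 0.10 (adjusted P = 7.43e-06). Its groups did not overlap either, and the direction was the same in each batch (1.01 and 0.64 for EGF). *OAZ2* differed by 0.13 ± 0.04 and 0.16 ± 0.04, with no overlap by CPM. By TPM its NRG-1 libraries (from 97.0) overlapped those of FBS (up to 103.19), and its EGF libraries (from 105.75) did not. It passed in batch 1 alone with NRG-1 but not with EGF, and in batch 2 alone with neither.

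*PAOX* differed by 0.37 ± 0.12 (adjusted P = 0.0104) with EGF and 0.29 ± 0.12 (adjusted P = 0.041) with NRG-1. They were larger in batch 2 alone (0.65 and 0.56), with 0.11 and 0.05 in batch 1, where neither passed. The calls were lost for EGF without FBS or EGF batch 2 replicate 1 (adjusted P = 0.051 to 0.0585) and for NRG-1 without NRG-1 batch 1 replicate 1, NRG-1 batch 2 replicate 1, FBS batch 1 replicate 2, FBS batch 2 replicate 1, or FBS batch 2 replicate 2 (adjusted P = 0.0584 to 0.225). *ODC1* differed by 0.01 ± 0.05 (interval -0.08 to 0.11) and -0.09 ± 0.05 (interval -0.18 to 0.01), and *SRM* by 0.07 ± 0.05 and -0.02 ± 0.05.

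*AMD1* was higher than in FBS by 0.28 ± 0.12 with EGF (adjusted P = 0.0476) and by 0.24 ± 0.12 with NRG-1, which did not pass (adjusted P = 0.0912). The EGF call was lost without any 1 of 6 of the 8 libraries, all but FBS batch 2 replicate 2 and EGF batch 2 replicate 1 (adjusted P = 0.0674 to 0.119). The NRG-1 difference passed with the replicate block (adjusted P = 0.00334), and without NRG-1 batch 2 replicate 1 (adjusted P = 0.0321). The replicate block also made *SMS* lower with each ligand (-0.13 and -0.13, adjusted P = 0.00395 and 0.00348) and *AZIN1* higher (0.16 and 0.21, adjusted P = 0.0281 and 0.00349). Without it these differences had adjusted P values of 0.0613 and 0.0584 for *SMS* and 0.186 and 0.0663 for *AZIN1*. By DESeq2 *SMS* passed too (adjusted P = 0.0434 and 0.0351), and on log2 TPM so did *AZIN1* with both ligands (0.28 and 0.31), *AMD1* with NRG-1 (0.33), and *SRM* with EGF (0.19, adjusted P = 0.0428). On this scale the median of all genes shifted by 0.11 with EGF and 0.09 with NRG-1. Relative to it these differences were 0.17 and 0.23 for *AZIN1*, 0.24 for *AMD1*, and 0.09 for *SRM*. Leaving out 1 library also brought calls for *SMS* (without FBS batch 2 replicate 1 or the ligand's batch 1 replicate 2, adjusted P = 0.0299 to 0.0372 for EGF and 0.0288 to 0.0466 for NRG-1) and for *AZIN1* with NRG-1 (without NRG-1 batch 2 replicate 1, adjusted P = 0.024). On log2 TPM *OAZ1* was higher with EGF than in FBS (0.10, adjusted P = 0.0383) where the CPM difference was -0.02, on a scale where the median of all genes shifted by 0.11.

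**Figure D3:**
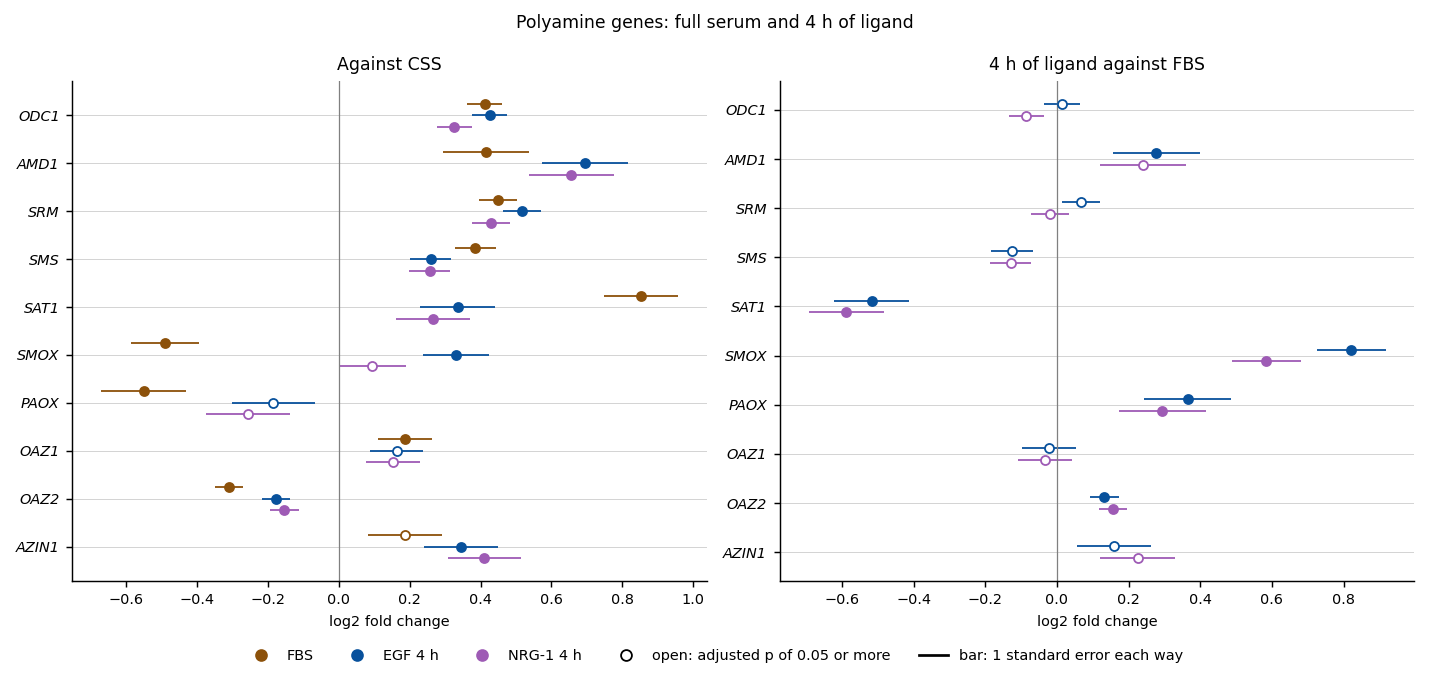
log2 fold changes of the 10 genes with 1 SE each way, on the left for FBS and for 4 hours of EGF or NRG-1 against CSS and on the right for 4 hours of ligand against FBS, with filled points for an adjusted P value below 0.05. The serum and ligand points of *ODC1*, *SRM*, and *SMS* lie on the same side of 0, those of *SMOX* lie apart, and on the right *SAT1* lies below 0 and *SMOX* above.

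Set side by side against CSS, the values of each role were these. For putrescine synthesis, *ODC1* was higher by 0.41 with serum, 0.43 with EGF, and 0.33 with NRG-1 at 4 hours. For decarboxylation of S-adenosylmethionine, *AMD1* was higher by 0.42, 0.69, and 0.66. For acetylation, *SAT1* was higher by 0.85, 0.34, and 0.26. For oxidation of spermine, *SMOX* differed by -0.49, 0.33, and 0.09, of which the last did not pass. The 3 comparisons share the CSS libraries, so their likeness to each other is not independent, and the tests between ligand and serum above are the ones that bear on it.

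The genes whose 8 group means followed *ODC1* most closely, taken from the 10077 genes whose average log2 CPM was 3 or more, were *LYAR* (Pearson *r* = 0.991, Spearman rho = 0.952), *MCPH1* (0.989 and 0.952), and *LCMT2* (0.988 and 0.976). The 8 points are group means of log2 CPM with the batch difference removed, and the 6 ligand groups share a medium.

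The wider pathway was described with 5 lists of 34 genes, of which 32 were tested (*OTC* and *ATP13A4* were not). Their counts stand against the shares of all genes tested. In FBS against CSS 26.0% were higher and 26.8% lower. After 4 hours of EGF these were 24.6% and 24.6%, and after 4 hours of NRG-1 21.6% and 21.0%. A count near these shares is not a result about its list. In the list of the methionine cycle and salvage, which supplies and recovers the S-adenosylmethionine that AMD1 uses, 8 of 8 genes were higher in FBS than in CSS, with a median of 0.38. After 4 hours 3 of 8 were higher with EGF and 3 of 8 with NRG-1, and none was lower. *MAT2A*, which makes S-adenosylmethionine, held 211, 199, 214 and 211 CPM in CSS, 246, 274, 294 and 293 in FBS, 473, 471, 433 and 437 after 4 hours of EGF, and 403, 399.8, 357 and 368 after NRG-1. The 4 groups did not overlap in any pair. Against CSS its log2 fold changes were 0.41 ± 0.06, 1.12 ± 0.06, and 0.87 ± 0.06, and it was the only 1 of the 32 tested genes that differed between EGF and NRG-1 at 4 hours (0.25 ± 0.06, adjusted P = 0.0144). *APIP*, of methionine salvage, was higher in FBS by 0.99 ± 0.11 (adjusted P = 8.42e-09), and differed by 0.12 ± 0.11 and 0.15 ± 0.11 with the ligands, which did not pass.

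Of the 8 tested genes that supply or use ornithine and arginine, 3 were higher and 1 lower in FBS (26.0% and 26.8% of all genes). With EGF at 4 hours 4 were higher and 3 lower (24.6% and 24.6%), and with NRG-1 3 were higher and 3 lower (21.6% and 21.0%). *ARG2*, the mitochondrial arginase that yields ornithine, held 131, 126, 109.5 and 119 CPM in CSS, 204, 209.6, 166 and 197 CPM in FBS, 93.9, 92.1, 73.8 and 78.8 CPM with EGF, and 90.3, 93.0, 75.6 and 89.3 CPM with NRG-1. It rose with serum by 0.68 ± 0.07 (adjusted P = 3.89e-09) and fell with ligand, with log2 fold changes of -0.52 ± 0.07 (adjusted P = 4.16e-07) for EGF and -0.48 ± 0.07 (adjusted P = 2.41e-06) for NRG-1. EGF against FBS gave -1.20 ± 0.07 (adjusted P = 1.24e-14). *OAT*, ornithine aminotransferase, was higher by 0.63 ± 0.10 in FBS, 0.32 ± 0.10 with EGF, and 0.26 ± 0.10 with NRG-1. *ARG1* and *GATM*, both under 2 CPM on average in each of these groups, were lower with EGF, with log2 fold changes of -1.16 ± 0.27 and -0.74 ± 0.20.

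Among 8 tested transport genes, 1 was higher and 3 lower in FBS (26.0% and 26.8% of all genes). With EGF at 4 hours 5 were higher and 2 lower (24.6% and 24.6%), and with NRG-1 3 were higher and 1 lower (21.6% and 21.0%). *ATP13A3*, a polyamine transporter of the endolysosomal membrane, held 114, 119, 122 and 116 CPM in CSS, 239, 241, 205 and 196 CPM with EGF, and 218, 202, 184 and 163 CPM with NRG-1. It was higher by 0.90 ± 0.08 (adjusted P = 1.92e-10) and 0.70 ± 0.08 (adjusted P = 3.30e-08), and differed by 0.07 ± 0.08 in FBS (adjusted P = 0.511). EGF against FBS gave 0.83 ± 0.08 (adjusted P = 4.69e-10). *SLC47A1*, an exporter of organic cations, was higher by 2.01 ± 0.32 and 1.22 ± 0.35, but had only 3 to 17 counts in the CSS libraries and 26 to 47 with EGF.

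Of the 4 genes for hypusine, the modification of EIF5A that is made from spermidine, 1 was higher in FBS (26.0% of all genes). With each ligand at 4 hours 2 were higher (24.6% for EGF and 21.6% for NRG-1), and none was lower in these comparisons. *DOHH*, the enzyme of its second step, was higher by 0.59 ± 0.13 with EGF (adjusted P = 0.000324) and 0.39 ± 0.13 with NRG-1 (adjusted P = 0.0149). Of the 4 related enzymes and regulators, 1 was higher and 2 lower in FBS (26.0% and 26.8% of all genes). With each ligand at 4 hours 1 was lower (24.6% for EGF and 21.0% for NRG-1). That gene was *AZIN2*, a second antizyme inhibitor at a low level, with 0.642 to 1.31 CPM in the CSS libraries and 0.214 to 0.592 CPM with EGF. Its log2 fold changes were -0.85 ± 0.15 in FBS, -1.22 ± 0.16 with EGF, and -0.88 ± 0.15 with NRG-1, in the opposite direction from *AZIN1* with the ligands.

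**Figure D4:**
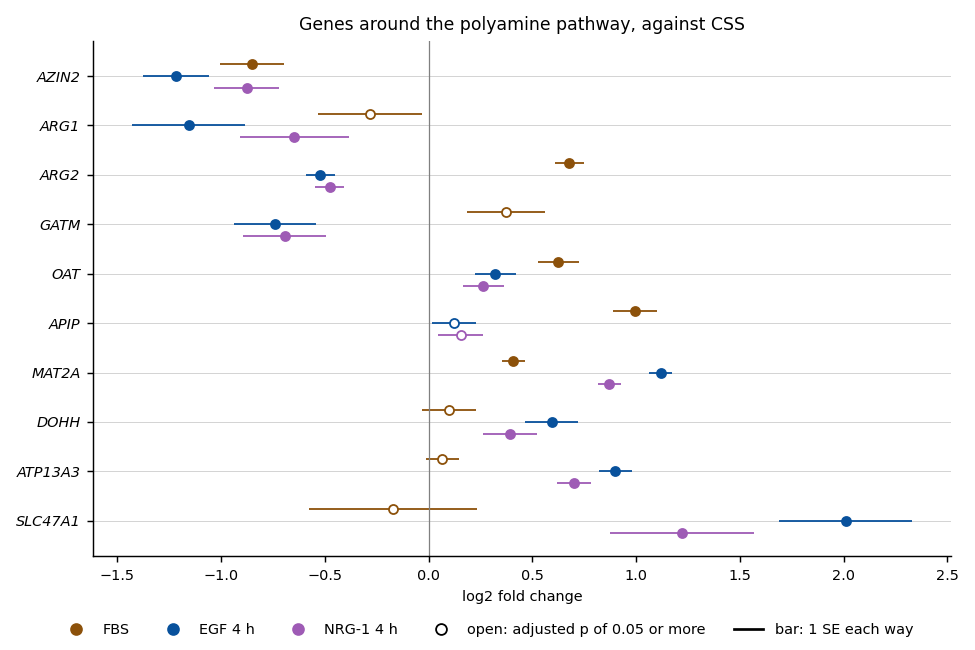
log2 fold change against CSS with 1 SE each way for the 10 named genes around the polyamine pathway, for FBS and for 4 hours of EGF or NRG-1, with filled points for an adjusted P value below 0.05. *ARG2* lies above 0 with serum and below 0 with both ligands, *APIP* stands out with serum, and *MAT2A* and *ATP13A3* with the ligands.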

How the data were processed

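RNA of 32 LNCaP libraries was sequenced by a stranded polyA protocol. Per the submitters' processing notes, the authors used Trimmomatic 0.36, STAR 2.7.0f, and RSEM with hg19, and deposited RSEM expected counts per gene (11.2% of values not whole) and TPM. Here the expected counts were rounded, and the 16995 of 25498 genes that reached 5 counts in 3 or more libraries were tested with the edgeR 4.0.16 quasi-likelihood test (R 4.3.3), TMM scaling, a model of group and batch over all 32 libraries, and Benjamini-Hochberg adjustment over all genes tested, in 14 comparisons. SE is the log2 fold change divided by the square root of F. CPM were computed from the counts with TMM library sizes. Alternatives used DESeq2 1.42.0 and limma 3.58.1 on log2(TPM + 1), other filters, models, and batches alone, and left out each library. The edgeR, DESeq2, and limma fits were tested on simulated counts for FBS against CSS, with no batch difference simulated. Library totals were 63822654 to 92401724 (median 77866194).

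Deviations from group means of libraries with the same batch and replicate number, a pairing taken from the labels, were correlated in 112 of 112 pairs of groups (r from 0.133 to 0.571), which in part is the batch: with batch means removed, 54 of 112 were over 0.1. The members and lists were chosen with earlier results of these data known. Named genes of the wider pathway passed in FBS, EGF 4 hours, or NRG-1 4 hours against CSS with a log2 fold change beyond 0.58. Isoforms were not told apart.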

Additional observations from a re-analysis of the deposited data

Results flagged for a closer look

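Libraries that stood apart from their group by CPM came from batch 2 replicate 2 each time. For *AMD1* this library held 1655 CPM after 4 hours of EGF (the other 3 held 1396 to 1434), 1965 CPM after 1 hour of NRG-1 (others 1324 to 1383), and 1884 CPM after 4 hours of NRG-1 (others 1256 to 1348). For *SAT1* it held 79.4 CPM in CSS (others 69.9 to 70.4) and 83.1 CPM after 5 minutes of NRG-1 (others 67.9 to 69.4). For *OAZ1* it held 903 CPM in FBS (others 719 to 749). By TPM the *AMD1* values remained above the others, while that of *OAZ1* in FBS (1196 TPM, others 1168 to 1268) and those of *SAT1* in CSS (142 TPM, others 137 to 145) and after 5 minutes of NRG-1 (144 TPM, others 141 to 145) lay within their groups. In all 80 groups of 4 values were examined by the gap to the nearest library over the range and 6 were marked, where chance marks about 1 in 20, or 4.

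The change against CSS differed between 1 hour and 4 hours of ligand, by the edgeR test of the difference itself, for 9 combinations of gene and ligand. With EGF the difference (4 hours minus 1 hour, log2) was 0.42 for *SRM*, 0.31 for *SMS*, 0.30 for *AZIN1*, 0.16 for *ODC1*, and -0.16 for *OAZ2*. With NRG-1 it was 0.27 for *SRM*, 0.28 for *SMS*, 0.29 for *AZIN1*, and -0.20 for *OAZ2*.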

How the results depend on the processing

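Of the 49 calls over the 10 genes and 14 comparisons, 15 kept their direction and passed under every one of the 13 alternatives, and 40 passed with each library left out in turn. Batch 2 alone, with 2 libraries a group, lost 32 calls and batch 1 alone lost 5. In batch 2 alone the genes called against CSS numbered 0 (EGF, 1 hour), 2 (EGF, 4 hours), 0 (NRG-1, 1 hour), and 1 (NRG-1, 4 hours), those between 4 hours and 1 hour 1 (EGF) and 0 (NRG-1), and those between EGF at 4 hours and FBS 3. That last count was also 3 without the batch term and 8 with limma on log2(TPM + 1) or log2(TPM + 0.1), and the count of NRG-1 at 4 hours against FBS was 2 when fitted on those groups alone and 7 with the replicate block. The replicate block lost no call of the 49 and brought 11 further ones, each given beside its result. Counts under an alternative have no share of all genes beside them, so a larger or smaller count is not a result about these genes. *OAZ1* changed direction on log2 TPM, to -0.015 in FBS against CSS with either pseudocount or no filter and to 0.10 for EGF at 4 hours against FBS with either pseudocount. *AZIN1* in FBS against CSS, called neither by edgeR nor on log2(TPM + 1), also changed direction there, to -0.009. The cause of these changes was not tested. With 1 library left out, the genes called numbered 8 to 9 for FBS, 3 to 4 and 8 for EGF at 1 hour and 4 hours, and 2 to 3 and 6 to 9 for NRG-1, all against CSS, 4 to 5 (EGF) and 3 to 4 (NRG-1) between 4 hours and 1 hour, and 4 to 5 (EGF) and 3 to 5 (NRG-1) against FBS. *SMOX* and *PAOX*, at 183 to 687 counts a library, carry the most counting error of the 10.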
